A study of Mus musculus with 5 samples.

Results

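Molecular chaperones are proteins that help others fold. They were followed here as the heat shock protein, DNAJ and chaperonin families in mouse glioma cells with and without insulin-like growth factor 1 (IGF-1), a ligand of a receptor tyrosine kinase that drives growth signalling. The members are all genes whose symbols begin as heat shock protein (Hspa, Hspb, Hspd, Hspe, Hsph, Hsp90), J-domain protein (Dnaja, Dnajb, Dnajc), cytosolic chaperonin (Cct), BAG or heat shock factor (Hsf) genes, with 10 symbols marked -ps left out. This gave 92 of the 29495 genes in the count tables. Of them 78 had 10 or more counts in at least 2 libraries and were tested, in a fit over all 16051 genes that passed the same filter. The other 14 had at most 12 counts in any library, and no difference in them could be assessed at this depth. Hspb11 and Hsf2bp belong by symbol only.

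The IGF-1 group was 3 libraries (replicates 3, 4 and 5) of glioma cells that had been co-cultured with olfactory bulb neurons and given IGF-1 at 20 ng/mL overnight. The control group was 2 libraries (replicates 1 and 2) of the same co-culture without the added factor. All glioma cells carried the genotype p53-/-;NF1-/-;tdTomato+/- and came from a tumour mouse model of mixed background that includes CD-1 and C57BL/6, whereas the neurons came from C57BL/6 pups at postnatal day 2 to 3. The glioma cells were sorted away from the neurons on the red fluorescent protein tdTomato, and polyadenylated RNA was sequenced. Insulin and serum were in the medium used to plate the neurons, with serum and B27 supplement in those that followed, so the control cells also met growth factors. Nothing in the labels says whether each library is from its own culture or animal. The p-values therefore reflect the scatter among these 5 libraries, part of which could be technical.

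Total counts were 18359421 to 20144181 in the IGF-1 libraries and 16944315 and 17365697 in the control libraries, and the members took 1.37% to 1.60% of them. Glial progenitor markers (Olig2, Sox10, Pdgfra, Cspg4, Sox2) were present throughout, and the 7 neuron markers were low but not all absent: they summed to 7.91 to 14.9 CPM, with Syt1 at 81 to 232 counts, Gad1 at 11 to 34, Snap25 at 9 to 21 and Rbfox3 at 0 or 1. A single library, IGF-1 replicate 5, differed from the rest over all genes. Against IGF-1 replicates 3 and 4 its counts gave a chi-square of 13.4 and 13.5 per degree of freedom, where replicates 3 and 4 gave 2.33 against each other and the controls 2.29. Each result is therefore given with all 5 libraries and, where it matters, without that library.

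As background, the heat shock factor HSF1 is held inactive by chaperones and, when unfolded proteins draw these away, switches on HSP70, HSP90, small heat shock protein and J-domain protein genes. HSP70 proteins bind short exposed stretches of unfolded chains in a cycle driven by ATP. J-domain proteins bring them their clients, and HSP110 and BAG proteins release the nucleotide. HSP90 then matures kinases and receptors, among them growth factor receptors, and barrel-shaped chaperonins fold whole proteins inside a cavity: CCT in the cytosol, on actin and tubulin above all, and HSPD1 with HSPE1 in mitochondria.

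The promoter sequences below are shown because they hold matches to control elements known from stress-inducible chaperone genes. Not every gene listed below as heat-inducible has a heat shock element in its window: Bag3, Dnajb1, Hspb8 and Hspa4l have none. They are from RefSeq on GRCm38.p6, whereas the counts were made on GRCm39, and run 5′ to 3′ on the strand of the gene. The heat shock element is built of inverted units of GAA, and both 2-unit forms, TTCNNGAA and GAANNTTC, read the same on either strand. In the 250 bases before the start of Hspa1b, the stress-inducible HSP70 (chr17:34959239-34959488, minus strand), the capitals mark the 1 match to GAANNTTC.
Hspa1b: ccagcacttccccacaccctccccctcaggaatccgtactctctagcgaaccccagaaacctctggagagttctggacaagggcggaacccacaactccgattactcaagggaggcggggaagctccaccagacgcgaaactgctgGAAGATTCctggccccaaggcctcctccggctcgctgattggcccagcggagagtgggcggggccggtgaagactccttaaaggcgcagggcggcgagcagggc

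Hspe1 and Hspd1 lie head to head on chromosome 1. The window of 250 bases before the start of Hspe1 shares 215 bases with a window of Hspd1 and 0 with another. The 30 bases printed next (chr1:55088053-55088082, plus strand) hold 4 alternating units in a row in capitals, 72 to 89 bases before the start of Hspe1, and also lie in an annotated exon of Hspd1.
Hspe1: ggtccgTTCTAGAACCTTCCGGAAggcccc

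The endoplasmic reticulum stress element, CCAAT and CCACG 9 bases apart, was searched for on both strands. The 3 tested members that hold it are Hspa5 (chr2:34772020-34772049, plus strand), Hsp90b1 (chr10:86705632-86705661, minus strand) and Dnajc3 (chr14:118937822-118937851, plus strand), which all act in that compartment. The element is in capitals within 30 bases of each; the window of Hsp90b1 holds 2 such elements, of which the farther from the start is printed, and the stretch of Hspa5 also lies in an annotated exon of that gene.
Hspa5: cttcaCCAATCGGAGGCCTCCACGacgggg
Hsp90b1: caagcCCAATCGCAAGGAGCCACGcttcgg
Dnajc3: cacaaCCAATCAGCGCCAACCACGacccgg

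Of the 78 tested members 61 had at least 1 such window, and 27025 genes had one in the whole table. TTCNNGAA was in 7 members (11.475%) against 8.115% of all genes, and GAANNTTC in 10 members (16.393%) against 7.726%. A run of 3 units, which contains both 2-unit forms, was in Dnajb6, Hspd1 and Hspe1 (4.918%) against 0.514% of all genes. The matches of Hspd1 and Hspe1 are the same bases read on opposite strands. That stretch is therefore counted for both genes, here and in the 2-unit counts. The windows of Hspa1a and Hspa1b are nearly alike and hold the same match to GAANNTTC at the same place. This match too is counted for both genes, so the 10 members are not 10 separate sequences. The endoplasmic reticulum element was in 3 members (4.918%) against 0.13%. A match is a description of these letters and not evidence of a bound site.

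Per kilobase of transcript the most abundant of the 76 tested members with a length was, in both groups, Hsp90ab1, the constitutive cytosolic HSP90, with a mean of 1410 CPM (counts scaled to the size of the library) per kilobase with IGF-1 and 1480 in controls. Hspa8, the constitutive HSP70, had 393 with IGF-1 and 394 in controls. Cct5, a CCT subunit, had 359 with IGF-1 and 382 in controls, and Hspd1 had 315 with IGF-1 and 337 in controls. These are the housekeeping members of the network. The 2 stress-inducible HSP70 genes were low, Hspa1b with 0.770 and 0.594 CPM per kilobase in IGF-1 and control cells, and Hspa1a with 0.171 and 0.118. Other HSP70 genes lay between them: Hspa12a (0.364 and 0.336), Hspa12b (0.424 and 0.512) and Hspa1l (0.478 and 0.533). A low level was therefore not particular to the inducible genes. Hspa1b and Hspa1a were far below Hspa8, their constitutive relative, in both groups. Levels of Hspa8, Hspa1a, Hspa1b, Hspb1, Hsp90aa1, Hspd1, Dnajb6, Hspe1 and Dnajc19 are uncertain, because over 30% of the 50-base windows of each transcript occur also in another gene or pseudogene, and the counting of such reads is not stated.

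**Figure D1:**
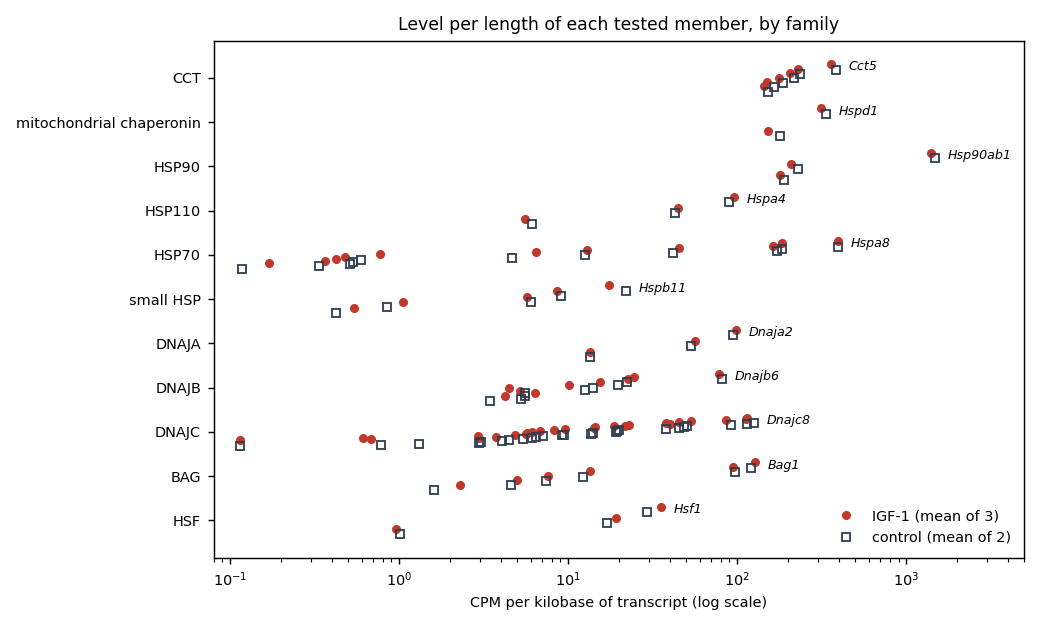
Mean level of each tested member with a transcript length, by family, in CPM per kilobase of transcript on a log axis; filled circles are the mean of 3 IGF-1 libraries and open squares the mean of 2 control libraries. The highest member of each family is named; Hsp90ab1 is highest of all at 1410 with IGF-1 and 1480 in controls, and Hspa1a is the lowest HSP70 gene in both groups.

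With all 5 libraries, 0 of the 78 tested members were called higher with IGF-1 and 0 lower by edgeR's quasi-likelihood test (adjusted p under 0.05 over all genes tested), where 0.679% of all genes were called higher and 0.343% lower. Before adjustment, 7 members (8.97%) were higher at p under 0.05 and 4 (5.13%) were lower, close to 7.08% and 5.48% of all genes. DESeq2 called 0 members higher and 1 lower, Dnajc28, where 1.18% of all genes were higher and 0.561% lower; 10 members had no adjusted p there. The median log2 change was -0.02 over the tested members and -0.01 over all genes tested; without IGF-1 replicate 5 it was 0.03 and -0.01. The values of the groups did not overlap for 15 members that were higher with IGF-1 (19.2%) and 8 that were lower (10.3%), against 16.2% and 16.7% of all genes. In bulk RNA, a change in the share of cells that express a gene and a change in RNA per cell cannot be told apart.

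Without IGF-1 replicate 5, edgeR's quasi-likelihood test called 8 of 76 members higher (10.5%) and 4 lower (5.26%), where 5.43% of 15701 genes were called higher and 3.64% lower. The members higher in that fit were the heat shock factor Hsf1, the HSP70 genes Hspa2 and Hspa14, the HSP110 gene Hspa4, the J-domain genes Dnajb1, Dnaja1 and Dnajc5, and Bag3. Those lower were Dnajc28, Dnajc12, Dnajb4 and Dnajb9, all J-domain genes. The common biological coefficient of variation in this fit was 0.0324, against 0.0774 in the fit of all libraries. The library was left out because its values differed, so the p-values of this fit may be too small. A fit that instead weights libraries by their quality (limma-voom) called 3 members higher (Hsf1, Hspa2 and Dnajb1) and 3 lower (Dnajc28, Dnajb4 and Dnajc12), where 2.97% of all genes were higher and 2.03% lower. With no filter on low counts 1 member was called higher, Hspa2, and 1 lower, Dnajc28, where 1.31% and 0.749% of 29495 genes were called.

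**Figure D2:**
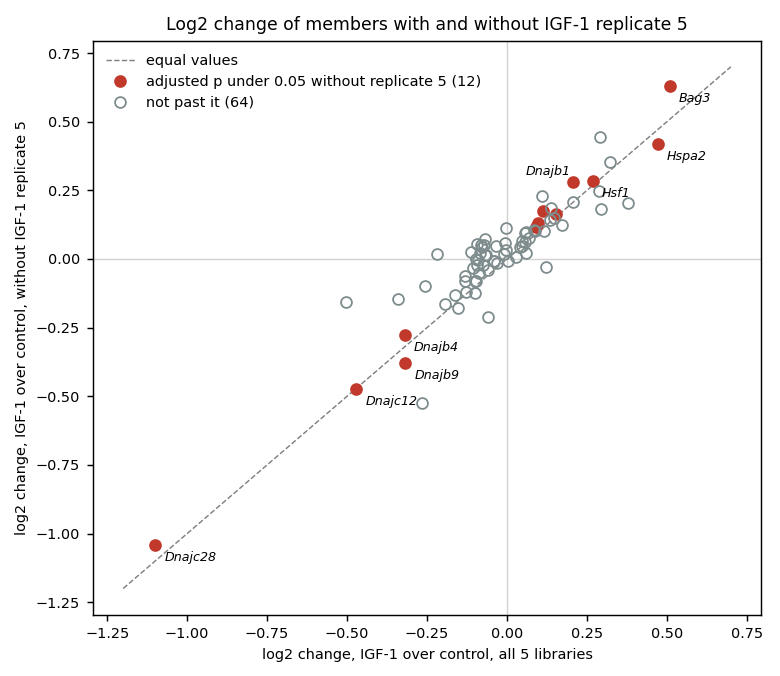
Log2 change (IGF-1 over control) of each member fitted in both, with all 5 libraries on the horizontal axis and without IGF-1 replicate 5 on the vertical axis; the dashed line marks equal values. The 12 filled members passed the threshold without replicate 5 and lie near the line, from Dnajc28 at -1.10 and -1.04 to Bag3 at 0.51 and 0.63.

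The heat shock factors come first, since HSF1 switches on part of the other members under stress. Hsf1, the main activator of the heat shock response, had 75.0, 74.4 and 71.9 CPM in the IGF-1 libraries (replicates 3, 4 and 5, in this order throughout), against 60.1 and 62.3 CPM in the control libraries (replicates 1 and 2). All 3 IGF-1 libraries lay above both controls and close to each other. The log2 change was 0.27 ± 0.07 (SE; adjusted p = 0.107 by edgeR) with all libraries and 0.29 ± 0.06 (adjusted p = 0.000394) without IGF-1 replicate 5. Hsf2, a related factor with roles in development, had 50.0, 46.2 and 52.8 CPM with IGF-1, against 42.8 and 45.4 CPM in controls, again without overlap (log2 change 0.17 ± 0.08, edgeR adjusted p = 0.431). Hsf4 was low in both groups, at 1.43 to 2.01 CPM with IGF-1 and 1.62 and 1.89 CPM in controls.

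Genes that HSF1 is known to induce on heat gave no call with all libraries. Of 15 listed and tested, 0 were called. Before adjustment 2 were higher (13.3%) and 1 lower (6.67%) at p under 0.05, where 7.08% and 5.48% of all genes were. The median log2 change of the 15 was -0.002. The list also holds Hspa8, Hsp90ab1 and Hspd1, named above as housekeeping members, and the median was the value of Hspa8. Without IGF-1 replicate 5, 3 of 13 were called higher (Dnajb1, Bag3, Dnaja1; 23.1%) and 1 lower (Dnajb4; 7.69%), where 5.43% and 3.64% of all genes were called. Dnajb1, the main cytosolic J-protein partner of inducible HSP70, had 75.1, 68.2 and 60.8 CPM with IGF-1, against 57.1 and 60.7 CPM in controls. Its lowest IGF-1 value, in replicate 5, lay just above the higher control, so the groups all but touch. The log2 change was 0.21 ± 0.09 (edgeR adjusted p = 0.396) with all libraries and 0.28 ± 0.06 (adjusted p = 0.000895) without replicate 5. Bag3, a co-chaperone that couples HSP70 and small heat shock proteins to autophagy, had 6.39, 6.36 and 4.84 CPM with IGF-1, against 4.45 and 3.77 CPM in controls. Replicates 3 and 4 were alike and replicate 5 stood between them and the controls. The log2 change was 0.51 ± 0.20 (edgeR adjusted p = 0.334) with all libraries and 0.63 ± 0.19 (adjusted p = 0.0236) without replicate 5.

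The inducible HSP70 genes stayed near the floor in every library. Hspa1b had 1.98, 1.85 and 2.64 CPM with IGF-1, against 1.39 and 1.95 CPM in controls, and the groups overlapped (log2 change 0.38 ± 0.30, edgeR adjusted p = 0.647). Hspa1a had 14, 4 and 11 counts with IGF-1, against 7 and 5 counts in controls. Hspb1, the small heat shock protein HSP27, had 14, 3 and 11 counts with IGF-1, against 4 and 9 counts in controls. Both Hspa1a and Hspb1 passed the filter through IGF-1 libraries alone, and their counts overlapped between the groups. Just inside the filter lay also Dnajc6, with 10, 13 and 12 counts with IGF-1, against 9 and 12 in controls. Just outside lay Dnajb13, with 4, 9 and 7 counts with IGF-1, against 11 and 6 in controls, and Hsf2bp, with 8, 6 and 6 against 3 and 12.

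**Figure D3:**
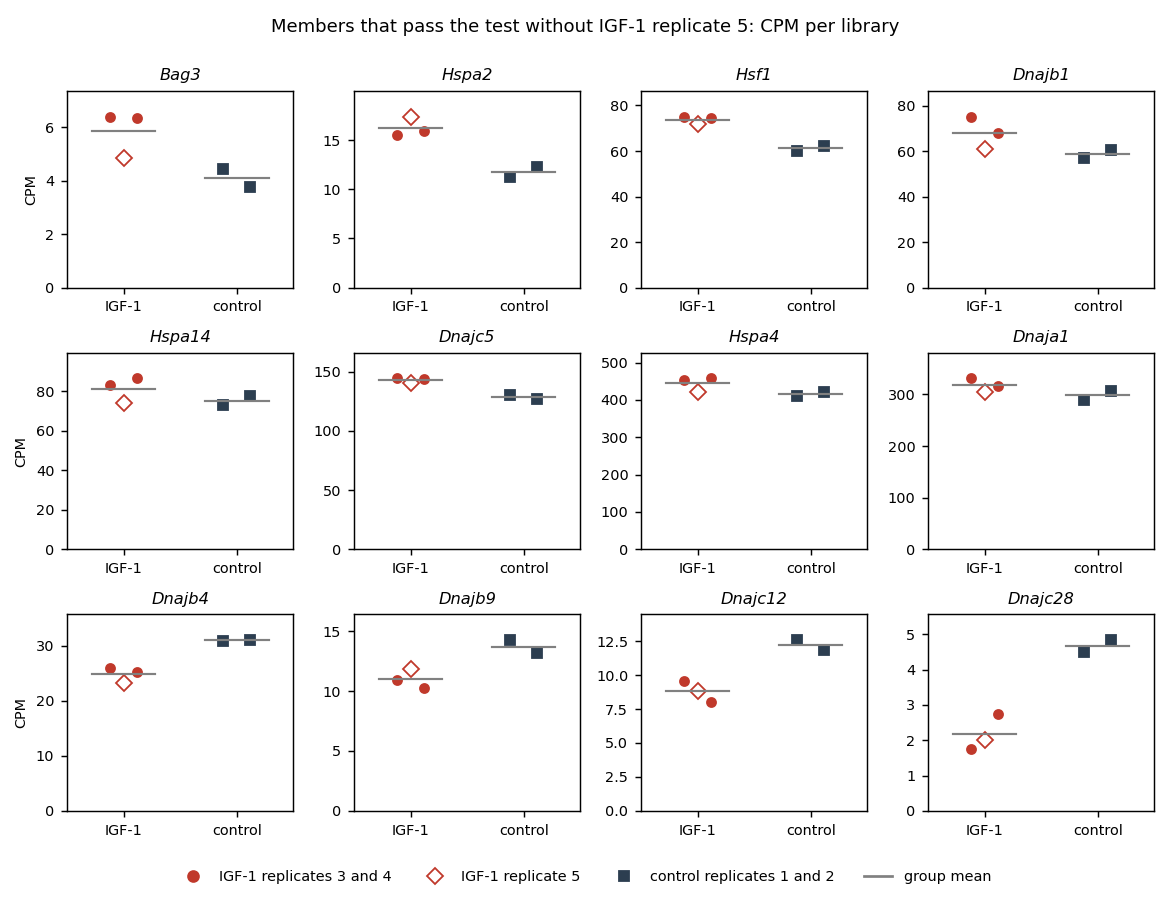
CPM per library of the 12 members that passed the threshold without IGF-1 replicate 5, with IGF-1 libraries left and control libraries right in each panel; the open diamond is IGF-1 replicate 5, lines are group means of all libraries, and each axis starts at 0. The groups overlap only for Hspa14 and Dnaja1, where replicate 5 lies among the controls. They do not overlap in the other panels, Hspa2 and Dnajc28 among them, but barely separate for Dnajb1 and Hspa4.

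Among all HSP70 genes Hspa2 alone had an unadjusted p under 0.05. It encodes an HSP70 best known from spermatogenesis and also present in other tissues. Hspa2 had 15.5, 15.9 and 17.4 CPM with IGF-1, against 11.2 and 12.3 CPM in controls. Every IGF-1 library was above every control library, and here replicate 5 was the highest of all. The log2 change was 0.47 ± 0.12 (edgeR adjusted p = 0.108) with all libraries and 0.42 ± 0.12 (adjusted p = 0.0136) without replicate 5. Hspa8 had 969, 963 and 892 CPM with IGF-1, against 939 and 947 CPM in controls, with a log2 change of -0.002 ± 0.06. Hspa5 (BiP), the HSP70 of the endoplasmic reticulum, had 696, 726 and 615 CPM with IGF-1, against 674 and 689 CPM in controls (-0.005 ± 0.08 on the log2 scale). These abundant HSP70 genes thus had nearly equal means in both groups, with replicate 5 the lowest library in each. Hspa14, a ribosome-associated HSP70, had 83.2, 86.5 and 73.9 CPM with IGF-1, against 72.9 and 77.5 CPM in controls; it was called higher without replicate 5 (0.17 ± 0.06, edgeR adjusted p = 0.0371).

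HSP110 proteins exchange the nucleotide of HSP70. Hspa4 had 454, 458 and 421 CPM with IGF-1, against 411 and 420 CPM in controls, so the groups barely separated. Its log2 change was 0.10 ± 0.06 (edgeR adjusted p = 0.585) with all libraries and 0.13 ± 0.04 (adjusted p = 0.00823) without replicate 5. Hsph1 had 171, 179 and 160 CPM with IGF-1, against 167 and 160 CPM in controls, and overlapped. Hspa4l had 52.5, 53.8 and 51.8 CPM with IGF-1, all below 56.5 and 58.9 CPM in controls (log2 change -0.13 ± 0.07, edgeR adjusted p = 0.474).

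The J-domain genes held all the members that were lower at an unadjusted p under 0.05. These were 2 of 9 tested Dnajb genes (22.2%) and 2 of 25 Dnajc genes (8%), against 5.48% of all genes. As many Dnajb and Dnajc genes were higher, against 7.08% of all genes. Dnajc28, which encodes a little-studied J-domain protein, had 32, 52 and 41 counts with IGF-1, against 78 and 82 counts in controls, or 1.76, 2.75 and 2.01 CPM against 4.50 and 4.84 CPM. The highest IGF-1 library had fewer counts than either control, although the level is low. The log2 change was -1.10 ± 0.24, or 0.467-fold, with an adjusted p of 0.0697 by edgeR and 0.0293 by DESeq2. Without replicate 5 it was -1.04 ± 0.25 (edgeR adjusted p = 0.00188). It was the member with the smallest p in the fit of all libraries. No 50-base window of its transcript is shared with another gene.

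Dnajc12, a J-protein that assists aromatic amino acid hydroxylases, had 9.59, 8.05 and 8.80 CPM with IGF-1, against 12.6 and 11.9 CPM in controls (log2 change -0.47 ± 0.13, edgeR adjusted p = 0.161; 0.0151 without replicate 5). Dnajb4, a cytosolic relative of Dnajb1, had 26.0, 25.2 and 23.2 CPM with IGF-1, against 30.9 and 31.0 CPM in controls (-0.32 ± 0.09, adjusted p = 0.162; 0.0319 without replicate 5). In both genes all IGF-1 libraries lay below both controls. Dnajb4 and Dnajb1 thus differed in direction, although both act with cytosolic HSP70 and are on the list of heat-inducible genes; the difference between them was not tested. Dnajb9, a J-protein of the endoplasmic reticulum and a partner of BiP, had 10.9, 10.2 and 11.8 CPM with IGF-1, against 14.3 and 13.2 CPM in controls (-0.32 ± 0.12, adjusted p = 0.327; 0.0464 without replicate 5).

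Several J-domain genes lay on the other side. Dnajc5, the cysteine string protein that guards synaptic vesicle and exocytosis proteins, had 144, 143 and 140 CPM with IGF-1, against 130 and 127 CPM in controls. The log2 change was 0.15 ± 0.06 (edgeR adjusted p = 0.323) with all libraries and 0.16 ± 0.05 (adjusted p = 0.0143) without replicate 5. Dnajb5 had 20.2, 20.8 and 22.1 CPM with IGF-1, against 15.9 and 18.6 CPM in controls (0.29 ± 0.11, adjusted p = 0.315; 0.141 without replicate 5). Dnajc21, which takes part in ribosome biogenesis, had 47.5, 47.7 and 47.2 CPM with IGF-1, against 43.0 and 39.3 CPM in controls (0.21 ± 0.08, adjusted p = 0.300; 0.0639 without replicate 5). These 3 genes had IGF-1 libraries within a narrow range and above both controls. Dnaja1, the main type A partner of HSP70 in the cytosol, had 331, 317 and 305 CPM with IGF-1, against 290 and 307 CPM in controls, and passed without replicate 5 (0.12 ± 0.04, edgeR adjusted p = 0.0436). The most abundant of the remaining J-domain genes overlapped between the groups. Dnaja2, a type A relative of Dnaja1, had 294, 295 and 268 CPM with IGF-1, against 272 and 277 CPM in controls. Dnajc7, which binds both HSP70 and HSP90, had 269, 265 and 247 CPM with IGF-1, against 260 and 275 CPM in controls. Dnajc10, a disulfide reductase of the endoplasmic reticulum, had 190, 180 and 179 CPM with IGF-1, against 189 and 203 CPM in controls. In each of these 3 genes replicate 5 was the lowest library. Over the tested J-domain genes the median log2 change was 0.06 for 3 type A genes, 0.14 for 9 type B genes and -0.03 for 25 type C genes.

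The endoplasmic reticulum list, 9 genes that hold Hspa5, Hsp90b1, Dnajb9 and Dnajc3, had a median log2 change of 0.03, with 0 called. At an unadjusted p under 0.05, 1 was lower (11.1%), against 5.48% of all genes, and 0 were higher, against 7.08%. Without IGF-1 replicate 5, 1 was called lower (Dnajb9, 11.1%), against 3.64% of all genes, and 0 higher, against 5.43%. Dnajc3, an inhibitor of the kinase PERK and co-chaperone of BiP, had 75.4, 72.1 and 72.8 CPM with IGF-1, against 70.4 and 70.9 CPM in controls (log2 change 0.06 ± 0.06, edgeR adjusted p = 0.759). The 3 genes printed above with the endoplasmic reticulum element were thus at -0.005 (Hspa5), -0.13 (Hsp90b1) and 0.06 (Dnajc3) on the log2 scale. None of the 3 passed the threshold with or without replicate 5.

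With or without replicate 5, no small heat shock protein gene and no BAG gene other than Bag3 was called. Bag1 had 136, 137 and 135 CPM with IGF-1, against 135 and 123 CPM in controls. Bag6, a guide for tail-anchored and misfolded proteins, had 365, 379 and 346 CPM with IGF-1, against 387 and 360 CPM in controls. Both overlapped between the groups. Hspb8, the small heat shock protein that works with Bag3, had 10.7, 11.4 and 8.85 CPM with IGF-1, against 11.6 and 10.5 CPM in controls. Unlike Bag3, it had replicates 3 and 4 within the range of the controls. Hspb6, a small heat shock protein known from muscle, had 11.6, 12.7 and 10.8 CPM with IGF-1, against 12.7 and 11.9 CPM in controls.

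HSP90 genes were not called either. Hsp90ab1 had 3720, 3804 and 3115 CPM with IGF-1, against 3853 and 3585 CPM in controls (log2 change -0.07 ± 0.09, edgeR adjusted p = 0.784). Hsp90aa1, the inducible cytosolic form, had 635, 597 and 522 CPM with IGF-1, against 619 and 629 CPM in controls (-0.09 ± 0.08, adjusted p = 0.677). Hsp90b1, the form of the endoplasmic reticulum, had 628, 607 and 527 CPM with IGF-1, against 626 and 662 CPM in controls (-0.13 ± 0.08, adjusted p = 0.538). In all 3 genes IGF-1 replicate 5 was the lowest library.

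That library was further below the others for the chaperonins. All 7 tested CCT genes were lowest in IGF-1 replicate 5. Cct5 had 698, 714 and 582 CPM with IGF-1, against 689 and 727 CPM in controls, and Cct6a had 577, 582 and 435 CPM against 550 and 566 CPM. Replicates 3 and 4 were near the controls and replicate 5 alone was below them. The CCT median, relative to the mean of the controls on the log2 scale, was 0.03, 0.05 and -0.36 in replicates 3, 4 and 5, and the fitted changes of the 7 genes ran from -0.11 to -0.03, with 0 called.

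In mitochondria Hspe1, the co-chaperonin HSP10, had 136, 144 and 76.6 CPM with IGF-1, against 137 and 139 CPM in controls. Hspd1, HSP60, had 841, 855 and 595 CPM with IGF-1, against 809 and 822 CPM in controls. Hspa9, the mitochondrial HSP70, had 544, 557 and 393 CPM with IGF-1, against 509 and 536 CPM in controls. Hspe1, Hspd1 and Hspa9 were thus low together in replicate 5. Relative to the mean of the controls, they were at -0.85 (Hspe1), -0.45 (Hspd1) and -0.41 (Hspa9) on the log2 scale in that library. The fitted log2 changes were -0.22 ± 0.20 (Hspe1), -0.09 ± 0.13 (Hspd1) and -0.07 ± 0.13 (Hspa9), all with edgeR adjusted p of at least 0.700 (Hspe1). Without replicate 5 they were 0.02, 0.05 and 0.07. Over the 8 mitochondrial members listed, the median was -0.08 with all libraries and 0.04 without replicate 5, with 0 called in either.

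**Figure D4:**
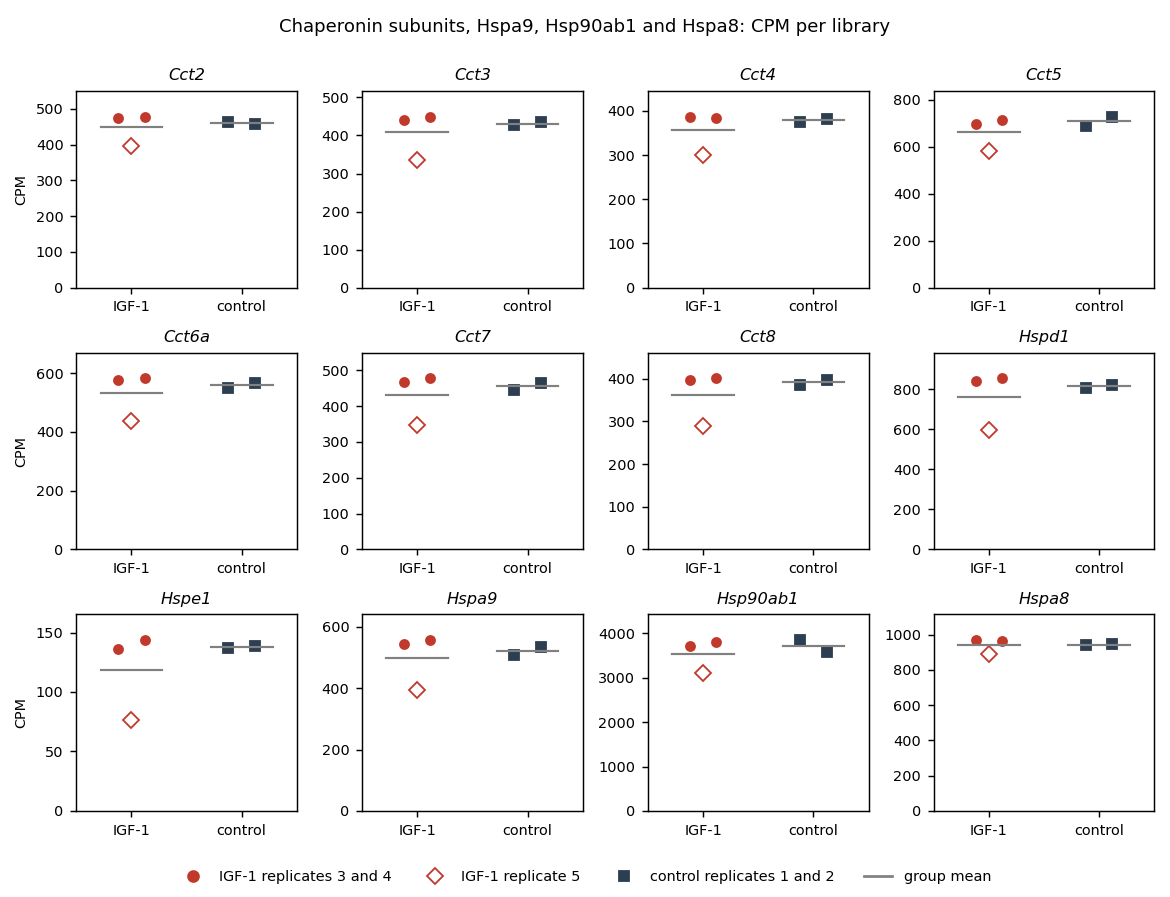
CPM per library of the 7 tested CCT genes, Hspd1, Hspe1, Hspa9, Hsp90ab1 and Hspa8, with IGF-1 libraries left and control libraries right in each panel; the open diamond is IGF-1 replicate 5, lines are group means, and each axis starts at 0. Replicate 5 is the lowest library in all 12 panels, from 892 CPM against 939 and 947 in controls for Hspa8 to 76.6 against 137 and 139 for Hspe1.

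Over all tested members, IGF-1 replicate 5 was the lowest of the 5 libraries for 36 (46.2%), against 29.4% of all genes, and the highest for 10 (12.8%), against 27.8%. It was below the mean of replicates 3 and 4 for 60 of 78 members, against 7944 of 16051 genes tested. The median log2 difference was -0.09 over the members and 0.004 over all genes tested. This library was singled out after its values were seen, so no test of its difference is given. The p-values of the fit without it rest on the same choice. Other measures moved with it. Summed neuron markers were 14.9 CPM in replicate 5, against 7.91 to 9.16 CPM in the other 4 libraries, but the excess was in Syt1, at 232 counts against 81 to 105. The other 6 neuron markers summed to 3.52 CPM in replicate 5, against 2.54 to 3.60 CPM, with Rbfox3 at 0. Summed microglia markers, at 0.636 CPM, were within the range of the other libraries, 0.531 to 0.924 CPM. Summed glial progenitor markers were 2800 CPM in it, against 2210 to 2380 CPM. Olig2, Sox10, Pdgfra and Cspg4 were highest in it, whereas Sox2 was lowest, at 170 CPM against 181 to 190 CPM. Summed astrocyte markers were 104 CPM in replicate 5 against 121 to 137 CPM, and summed endothelium markers were 0.293 CPM against 0.924 to 1.32 CPM. Mitochondrially encoded genes took 3.22% of its counts against 2.78% to 3.14%. Across genes, longer transcripts were higher in replicate 5 relative to replicates 3 and 4 (Spearman 0.265 over 12930 genes and 0.378 over 76 members, which share the libraries and are not independent replicates). The part of these measures in the low chaperonin values was not tested.

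**Figure D5:**
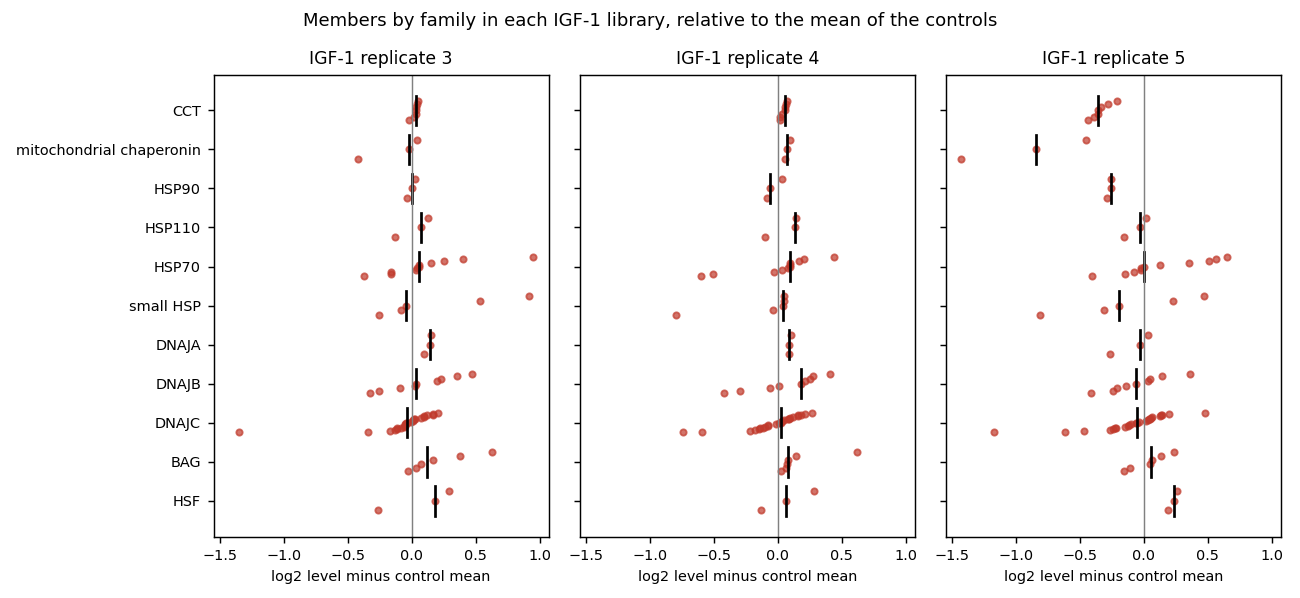
Log2 level of each tested member minus the mean of the controls, by family, in IGF-1 replicates 3, 4 and 5; points are genes and bars are family medians. CCT genes cluster near 0 in replicates 3 and 4 and around -0.36 in replicate 5, whereas heat shock factor genes have a positive median in all 3.

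Genes that work with these families were listed as partners: prefoldin subunits, HSP90 co-chaperones, nucleotide exchange factors, other mitochondrial and endoplasmic reticulum chaperones, and Tcp1, the CCT subunit that the symbol rule does not reach. All 39 were tested, and 0 were called. Before adjustment 3 were higher (7.69%) and 1 lower (2.56%) at p under 0.05, where 7.08% and 5.48% of all genes were, and their median log2 change was -0.05. Grpel2, a nucleotide exchange factor for the mitochondrial HSP70, had 33.8, 32.7 and 35.4 CPM with IGF-1, against 28.2 and 28.2 CPM in controls (0.27 ± 0.08, edgeR adjusted p = 0.217). Tomm34, a cytosolic HSP70 and HSP90 adaptor, had 52.6, 53.0 and 56.7 CPM with IGF-1, against 48.3 and 44.2 CPM in controls (0.23 ± 0.08, adjusted p = 0.261). Replicate 5 was the highest library for both. Hikeshi, which carries HSP70 into the nucleus, had 27.6, 27.9 and 27.5 CPM with IGF-1, against 31.8 and 32.9 CPM in controls (-0.23 ± 0.08, adjusted p = 0.288). Fkbp5, an HSP90 co-chaperone of steroid receptors, had 127, 139 and 138 CPM with IGF-1, against 121 and 118 CPM in controls, and was the 1 partner called without replicate 5 (0.16, edgeR adjusted p = 0.0287).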

How the data were processed

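Each library has a deposited table of raw read counts by gene symbol. Per the submitters' processing notes, the authors used the build GRCm39 with featureCounts 2.0.1, STAR 2.7.9a, DESeq2 1.28.1 and cutadapt 3.4; annotation and the handling of strand and multiply mapped reads are not given in the sources used here, so reads of paralogs, pseudogenes and overlapping genes may be shared. Exons of 27 tested members overlap those of another annotated gene, with over 10% of the exonic bases in Dnajc30, Hspa1l, Dnajc14, Hspa1a, Bag4 and Hsp90b1; among the members called without IGF-1 replicate 5 Hspa14, Dnaja1 and Dnajb9 have such an overlap, each under 10%.

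They were tested with edgeR 4.0.16 (R 4.3.3): genes with 10 or more counts in at least 2 libraries, TMM factors, a two-sided quasi-likelihood test of 3 IGF-1 against 2 control libraries, and Benjamini-Hochberg adjustment across every gene in the fit (threshold 0.05). The SE of a log2 change is its size over the square root of F. CPM are scaled by TMM, and log2 levels per library use a prior count of 2. The procedure was tested on simulated data. Alternatives were RLE factors, total counts, filterByExpr, no filter, DESeq2 1.42.0, limma-voom 3.58.1 without and with sample quality weights, and each library left out. Transcript lengths and shared windows are from principal transcripts of a GENCODE annotation of GRCm38, matched by symbol, and promoters from RefSeq; some items are not reported here.

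The members, families, lists and partners were chosen with earlier results of these data known. Named are the 10 members with the smallest p, those called without IGF-1 replicate 5, the 2 most abundant of each family, and a fixed list of stress and housekeeping members. Hsf4, Hspa4l, Hspa12a, Hspa12b, Hspa1l, Dnajc6, Dnajb13 and Hsf2bp, and the genes in figures beyond these, were chosen after their values were seen.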

Additional observations from a re-analysis of the deposited data

How the results depend on the processing

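The count of members called higher, 0 with all libraries, was 1 with no filter on low counts, 3 with sample quality weights, and 0 to 8 when a library was left out. The count of members called lower, also 0, was 1 with no filter, 1 by DESeq2, 3 with quality weights, and 0 to 4 when a library was left out. Among the fits without 1 IGF-1 library, every call of a member came from the one without replicate 5. That fit also called more of all genes, 5.43% higher and 3.64% lower. Without replicate 3 these shares were 0.177% and 0.0569%, and without replicate 4 they were 0.221% and 0.12%. The lack of calls in those 2 fits is therefore not particular to the members. At an unadjusted p under 0.05, the 7 members higher became 4 by DESeq2 (5.13%, against 5.07% of all genes) and 12 with quality weights (15.4% against 9.76%). When an IGF-1 library was left out they became 4 to 17 (5.13% to 22.4%, against 6.41% to 11.5% of all genes). The 4 members lower became 8 with no filter (8.7% against 4.51%). They stayed 4 when an IGF-1 library was left out (5.13% to 5.26%, against 4.99% to 9.6% of all genes). Partner genes called higher numbered 0 to 1 when a library was left out. No named member changed sign past the threshold under any alternative, but without IGF-1 replicate 5 the log2 change of 9 of 37 named members, none of them called, had the other sign. Without replicate 3 or 5, Hspa1a and Hspb1 no longer passed the filter and gave no value. Leaving out 1 control leaves 1 library, whose spread is taken from the IGF-1 libraries. RLE factors, total counts, filterByExpr and limma-voom without weights called 0 members. No paired analysis was possible because the groups share no replicate number. With 3 against 2 libraries, small differences of low genes such as Hspa1b were not detectable at this depth; the SE of its log2 change was 0.30.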

Other observations

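Cryab, a small heat shock protein whose symbol the member rule does not take, had 22.1, 26.4 and 12.7 CPM in the IGF-1 libraries (replicates 3, 4 and 5), against 24.9 and 26.1 CPM in the control libraries (log2 change -0.33 ± 0.23, edgeR adjusted p = 0.605; -0.07 without replicate 5, adjusted p = 0.755). Tcp1, the remaining CCT subunit, had 624, 632 and 518 CPM with IGF-1, against 595 and 625 CPM in controls, with replicate 5 again the lowest library. Trap1, the mitochondrial HSP90, had 78.5, 79.4 and 61.8 CPM with IGF-1, against 78.3 and 76.4 CPM in controls. Replicate 5 was the lowest of the 5 libraries for 25 of the 39 partner genes (64.1%), against 29.4% of all genes, and the highest for 5 (12.8%), against 27.8%. These genes were chosen after their values were seen.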
